A study of Homo sapiens with 8 samples.

Results

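The transcripts described here are those of 10 protein genes of human mitochondrial DNA (mtDNA): ND1, ND2, ND3, ND4, ND5, ND6, COX1, COX2, ATP6 and CYTB. They were found as all probe sets whose platform annotation names one of these genes, which gave 10 of the 54675 probe sets on the array. These 10 probe sets cover 7 of the 10 genes, since none is annotated to ND1, ND5 or CYTB. The list was built around ND6, which was chosen by its measured level: with EerI it was lower than in control cells past an adjusted p of 0.05 and past 2-fold. All values of these genes with EerI against control are therefore given as a description, without a test.

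RNA was taken from 293T cells, a line of human embryonic kidney origin that carries the SV40 large T antigen. The cells had been exposed for 10 h to EerI (Eeyarestatin I), to CBU-028 or to 5-NA (5-nitrofuryl-acrolein), each at 10 µM, and control cells were run beside them, with 2 Affymetrix arrays for each of the 4 groups. EerI blocks ER-associated degradation (ERAD), and 5-NA stands for the nitrofuran-containing part of EerI without its aromatic part, while CBU-028 is another compound of the study and is given here by its code name. All 4 groups are the same unmodified line, whether the control cells received solvent is not stated for the arrays, and the titles of the 5-NA samples carry a number that the study's compound list gives to another compound, so that their group rests on their other labels.

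Mitochondrial DNA encodes a small set of subunits of the respiratory chain and the ATP synthase, along with the ribosomal and transfer RNAs needed to translate them. Both strands are transcribed by the polymerase POLRMT into long precursors that are cut at the transfer RNAs, so that most messages come from the heavy-strand transcript and ND6 alone among the protein genes comes from the light-strand one. The heavy-strand messages are held stable by LRPPRC and SLIRP and carry poly(A) tails, whereas human ND6 RNA is known to lack a regular tail, and light-strand RNA is cleared by the degradosome of SUPV3L1 and PNPT1. In the RefSeq annotation of GRCh38.p14 ND6 is the 12th of 13 mitochondrial protein genes in order along the chromosome, between ND5 and CYTB, neither of which has a probe set here.

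Replicate arrays correlated at r = 0.995 to 0.998 over all probe sets, and array medians lay between 6.89 and 6.93 on the log2 scale. The median absolute difference between the 2 arrays of a group was widest for CBU-028, at 0.139, and narrowest for control, at 0.0738. The 3' minus 5' difference of the ACTB probe sets was 0.0743 to 0.196 on 7 arrays and 0.363 on 5-NA array 2. Of the 6 markers expected in 293T cells, VIM, KRT18, NEFM, YAP1 and KRT8 lay between 9.31 and 13.77. PAX2 lay near the array median at 6.58 to 6.95. Against control, 1 of the 6 was lower with CBU-028 and 1 higher with 5-NA past an adjusted p of 0.05 in limma. NEFM read 9.84 and 9.70 with CBU-028 against 10.14 and 10.27 in control cells. KRT8 read 9.72 and 9.64 with 5-NA against 9.35 and 9.43. Treatments were done in duplicate and the study speaks of a biological replicate, but whether the 2 samples of a group came from separate cultures is not spelled out in the sources used here, so the p-values measure only the spread between these samples, which may be technical.

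ND6, a core subunit of complex I of the respiratory chain, was the member whose level differed between the groups. Its single probe set read 9.93 and 10.45 with EerI, 9.92 and 9.96 with CBU-028, 11.42 and 11.33 with 5-NA, and 12.20 and 12.06 in control cells, all as log2 RMA values. The strand that this probe set detects is not given in the sources used here, so its values are read as those of the annotated gene. Every array of a treated group lay below both control arrays, both 5-NA arrays lay between the control arrays and the other 4, and the EerI and CBU-028 arrays overlapped. The group means were 10.19 ± 0.37 with EerI, 9.94 ± 0.026 with CBU-028, 11.38 ± 0.059 with 5-NA and 12.13 ± 0.10 in control cells (SD, n = 2 each). The 2 EerI arrays were thus farther apart than those of any other group. ND6 stood between the 85.8th and the 97.1st percentile of the probe sets of an array, so it was well within the measured range on all 8 arrays.

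**Figure D1:**
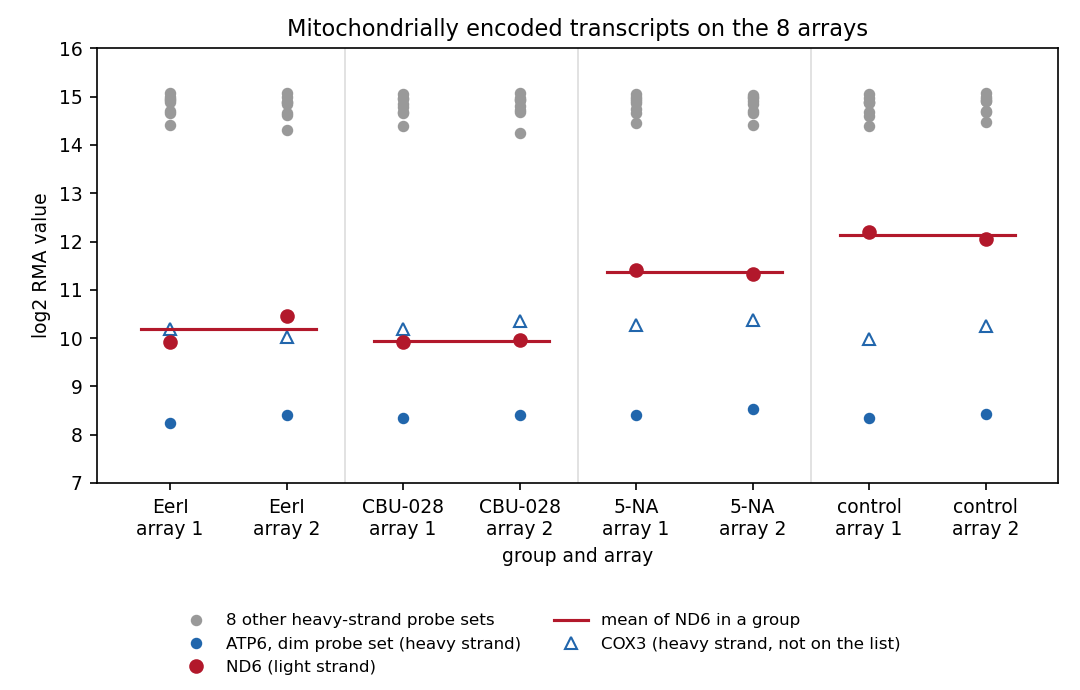
The log2 RMA value (y axis) of the member probe sets and of COX3 on each of the 8 arrays (x axis), with 2 arrays per group. Red points are ND6 and red lines its group means, which are 10.19 with EerI, 9.94 with CBU-028, 11.38 with 5-NA and 12.13 in control cells, while the 8 bright heavy-strand probe sets (grey) stay between 14.24 and 15.07 on every array.

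In the comparison that chose it, ND6 differed by -1.94 on the log2 scale between EerI and control cells, or 3.85-fold lower with EerI. This was the lowest difference of all 54675 probe sets. Taken singly, the 2 EerI arrays differed from the control mean by -2.20 and -1.68, so the size of the difference depends on which is read. RNA was measured from whole cultures, in which fewer cells with the transcript and less of it per cell cannot be told apart.

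CBU-028 gave an ND6 level 4.58-fold below control. The log2 difference was -2.19 ± 0.15 (SE) with a 95% interval of -2.53 to -1.86 and an adjusted p of 0.000102 by limma, the 4th lowest difference of all probe sets in that comparison. Of the 10 member probe sets it was the only one past the threshold, beside 9.67% of all probe sets called in either direction with CBU-028. Leaving out any array kept the difference between -2.27 and -2.12. On the CBU-028 arrays the mean of 3 probe sets for cytosolic 18S rRNA was 0.74 higher than in control cells on the log2 scale, and that of 28S rRNA 0.20 higher, and their part in the ND6 result was not tested.

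With 5-NA, ND6 fell to a level 1.69-fold below control. The log2 difference was -0.76 ± 0.15 (SE), the 95% interval -1.09 to -0.42 and the adjusted p 0.00934, the 366th lowest difference of all probe sets. ND6 was again the only called member of 10, in a comparison in which 15.2% of all probe sets were called. This call rested on single arrays: the adjusted p was 0.0506 without 5-NA array 1, 0.0715 without 5-NA array 2 and 0.0776 without control array 1, although the difference stayed between -0.83 and -0.69. The 5-NA arrays also read 0.92 higher for 28S rRNA and 0.75 higher for 18S rRNA than the control arrays, and the monocyte marker CD14 was 1.06 higher (adjusted p 0.00102), without a test of their part in the result. The 9 measured markers of other cell types summed to 1275 and 1283 on the 5-NA arrays, in linear signal, against 1348 and 1398 on the control arrays.

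Both of these comparisons use the same 2 control arrays as the one by which ND6 was chosen, so they are not independent of it. The difference of means between 5-NA and CBU-028 takes no value from the EerI or control arrays. Its SE, interval and adjusted p do use them, through a variance pooled over the arrays of all groups. For ND6 the spread was widest between the EerI arrays (SD 0.37), so this test is not fully independent of the choice either. In a limma fit of the 5-NA and CBU-028 arrays alone, the adjusted p of ND6 was 0.00512. ND6 was 2.71-fold higher with 5-NA than with CBU-028, at 11.42 and 11.33 against 9.92 and 9.96. The log2 difference was 1.44 ± 0.15 (SE), the 95% interval 1.11 to 1.77 and the adjusted p 0.00115, and it held with each array left out (1.40 to 1.48, adjusted p 0.00155 to 0.0177). It was the only member of 10 called, against 10.6% of all probe sets in this comparison.

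The 2 remaining pairs of compounds include the EerI arrays and are given without a test for ND6. ND6 was 2.28-fold higher with 5-NA than with EerI, a log2 difference of 1.19. CBU-028 differed from EerI by -0.25, and the arrays overlapped, which does not show that the pair act alike. Since ND6 was chosen for its low level with EerI, the size of both differences is shaped by that choice. They are given as a description of the compounds at the same dose and time.

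The heavy-strand members gave another picture. ND2, ND3 and ND4 are subunits of complex I as ND6 is, COX1 and COX2 form the catalytic core of cytochrome c oxidase, and ATP6 is the subunit of the ATP synthase that conducts protons. Their 9 probe sets had median log2 differences from control of -0.0059 with EerI, -0.014 with CBU-028 and 0.013 with 5-NA, and over all probe sets these medians were 0.0076, 0.0027 and -0.0079. None of the 9 was past the threshold in limma in any of the 5 tested comparisons, and none was under an unadjusted p of 0.05 either. An ordinary linear model without moderation called none after adjustment, and 1 of them, ND3, had an unadjusted p under 0.05 in 3 of these comparisons. The shares of all probe sets called were 2.95% for CBU-028 against EerI and 14% for 5-NA against EerI.

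**Figure D2:**
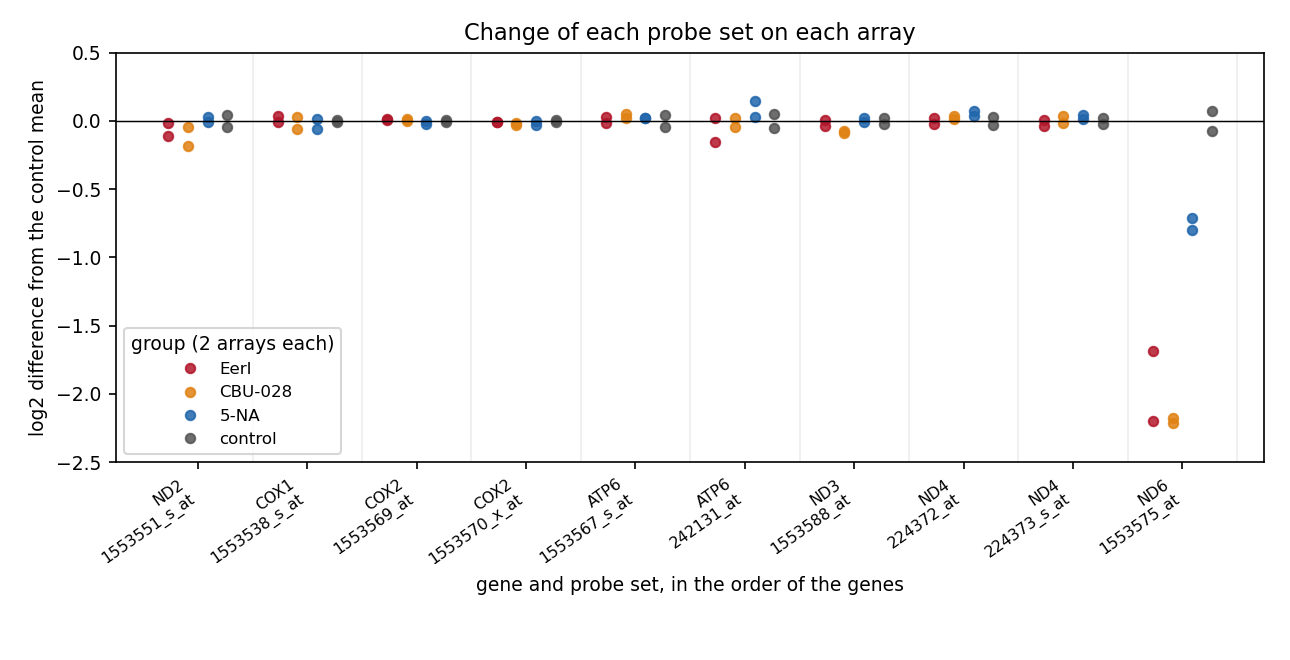
The log2 difference from the control mean (y axis) of each of the 10 member probe sets on each array, with probe sets in the order of their genes along mitochondrial DNA (x axis) and colours for the groups. The heavy-strand points lie between -0.18 and 0.15 on every array, and ND6, at the right, lies at -2.20 and -1.68 with EerI, -2.21 and -2.18 with CBU-028 and -0.71 and -0.80 with 5-NA.

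Among the complex I subunits of the heavy strand, ND2 varied most over the arrays. Its probe set read 14.41 and 14.32 with EerI, 14.38 and 14.24 with CBU-028, 14.46 and 14.42 with 5-NA, and 14.38 and 14.47 in control cells. Both CBU-028 arrays lay below both control arrays by a narrow margin, and the difference of -0.11 had an interval of -0.31 to 0.08 and an adjusted p of 0.507. ND3, whose probe set is also annotated to the nuclear gene SH3KBP1, read 14.89 and 14.85 with EerI, 14.79 and 14.81 with CBU-028, 14.87 and 14.90 with 5-NA, and 14.86 and 14.90 in control cells. The 2 CBU-028 arrays were the lowest of the 8, with a difference from control of -0.08 (interval -0.25 to 0.09, adjusted p 0.585). The 3 probe sets of SH3KBP1 alone, an adaptor of receptor endocytosis, lay between 6.65 and 10.62.

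ND4 was measured by 2 probe sets, at 14.89 to 14.99 and at 14.65 to 14.74 over the 8 arrays. Both gave small positive differences with 5-NA against control, 0.05 without overlap of the arrays and 0.03 with overlap, and neither was called. COX1 lay between 14.84 and 14.93, and the 2 probe sets of COX2 between 14.96 and 15.07. The whole spread of these probe sets over all groups was under 0.10, less than the difference of ND6 between its 2 EerI arrays.

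ATP6 was seen at very different levels by its 2 probe sets. The bright one lay at 14.59 to 14.69 and the dim one read 8.24 and 8.41 with EerI, 8.34 and 8.41 with CBU-028, 8.42 and 8.53 with 5-NA, and 8.34 and 8.44 in control cells. Levels of different probe sets cannot be set against each other as amounts of RNA, but the differences can be read side by side. The dim probe set differed from control by -0.07 with EerI, -0.01 with CBU-028 (interval -0.22 to 0.20) and 0.09 with 5-NA (interval -0.12 to 0.30), with the arrays of all groups overlapping those of control. COX3, a heavy-strand gene outside the list, also had a probe set of middling level: 10.19 and 10.03 with EerI, 10.19 and 10.34 with CBU-028, 10.27 and 10.36 with 5-NA, and 9.97 and 10.26 in control cells. It was not called with any compound.

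**Figure D3:**
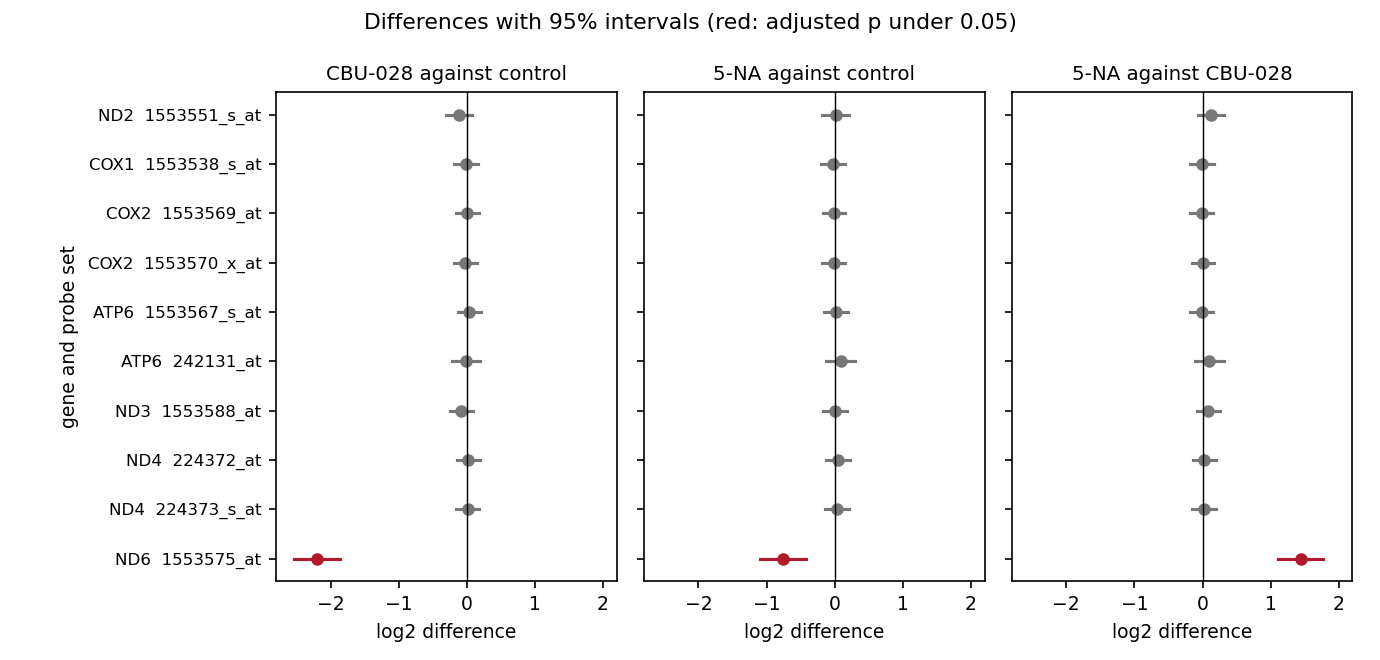
Log2 differences (x axis) with 95% intervals for the 10 member probe sets (y axis) in the 3 comparisons without EerI as a group, red where the adjusted p was under 0.05. The intervals rest on a variance pooled over all groups, EerI included. The 9 heavy-strand intervals all include 0 and stay within -0.31 and 0.32, and only those of ND6 do not reach 0.

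The height of the signal limits what these probe sets can show. The 8 bright ones stood at or above the 99.6th percentile of their arrays, with values up to 15.07 where the highest value of any probe set on an array was 15.19 to 15.25. Rises of probe sets this bright are bounded by the top of the scale, and whether falls are understated as well was not tested. Their flat values therefore do not show that the heavy-strand messages stayed the same. Over the other probe sets of this brightness the median absolute log2 change with 5-NA was 0.051, against 0.13 over all probe sets. The 291 other probe sets with a mean of at least 14 had a median SD within groups of 0.0297, against 0.100 over all probe sets. In this band 2.41% were called with CBU-028 against control and 2.41% with 5-NA, and the largest change of any of them against control was 0.72 on the log2 scale. Changes were thus still recorded in this band, at a lower rate than over all probe sets. The dim ATP6 probe set and COX3 are the heavy-strand measurements outside it. The COX3 probe set carries a cross-hybridization mark, and how well the dim ATP6 probe set detects its message was not tested.

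The nuclear genes whose probe sets were most like ND6 over the 8 arrays were HOXC9, FBN2, VCAN, PLPP3 and FREM2, with Pearson's r of 0.97, 0.96, 0.96, 0.96 and 0.95 among 2515 candidate probe sets. HOXC9, a homeobox transcription factor, read 7.99 and 8.28 with EerI, 7.93 and 7.93 with CBU-028, 8.50 and 8.64 with 5-NA, and 8.73 and 8.66 in control cells. VCAN, which encodes the matrix proteoglycan versican, differed from control by -0.93 with EerI, -0.95 with CBU-028 and -0.43 with 5-NA on the log2 scale, against -1.94, -2.19 and -0.76 for ND6. The most opposite genes, looked up after these values were seen, were GRB10, LRRC8D, INHBE, PSPH and TMEM268, with r between -0.99 and -0.98. INHBE, an activin subunit, was higher by 2.25 with EerI, 2.21 with CBU-028 and 0.92 with 5-NA, and PSPH, an enzyme of serine synthesis, by 1.14, 1.18 and 0.45. These correlations rest on 8 arrays in 4 groups and are given as a description.

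Nuclear genes for mitochondrial proteins and their regulators were read from 11 lists with 202 measured genes, each by its brightest probe set. With EerI none of the 202 was called by limma, against 0.506% of all genes called higher and 0.263% called lower, while 28, or 13.9% of the lists, had an unadjusted p under 0.05, against 11.8% of all genes. With CBU-028, 6 were higher and 12 lower, against 5.49% and 7.1% of all genes. With 5-NA, 9 were higher and 38 lower, against 7.87% and 10.9% of all genes. These counts rest on the 2 control arrays: without control array 1 or 2 the CBU-028 total of 18 dropped to 1, and the 5-NA total of 47 to 11 or 12. It was 23 without 5-NA array 1, 30 without 5-NA array 2 and 11 for CBU-028 without CBU-028 array 1.

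POLRMT, the mitochondrial RNA polymerase, read 10.81 and 10.75 with EerI, 10.70 and 10.76 with CBU-028, 10.56 and 10.61 with 5-NA, and 11.08 and 11.08 in control cells. Its arrays with each compound lay below both control arrays. The log2 difference was -0.30 with EerI (adjusted p 0.179), -0.35 with CBU-028 (adjusted p 0.0215) and -0.50 with 5-NA (adjusted p 0.0032). POLRMT did not pass the threshold between 5-NA and CBU-028 (-0.15, interval -0.32 to 0.03, adjusted p 0.298), so the order of these compounds is not settled. Whether POLRMT has a part in the ND6 result was not tested. The POLRMT call with 5-NA held with each of the 8 arrays left out, and that with CBU-028 with 5 of the 8.

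Of the 10 mtDNA transcription genes, none was called with EerI, and 2 were lower with CBU-028 (20%, against 7.1% of all genes). With 5-NA 4 were lower and 1 higher (40% and 10%, against 10.9% and 7.87% of all genes). The list's median with 5-NA was -0.22, against -0.03 over all genes. With CBU-028 the other lower gene was MTERF4, a factor of mitochondrial ribosome assembly, at -0.37. With 5-NA they were POLRMT, MTERF2, of the family of mitochondrial termination factors, at -0.67, MTRES1, which binds the transcription machinery under stress, at -0.53 and, outside the rule for naming and picked after its value was seen, TFB1M, the methyltransferase of the small ribosomal RNA, at -0.49. MTERF1, named likewise, was higher at 0.30. Between 5-NA and CBU-028 themselves, MTERF2 (-0.57, adjusted p 0.0139), MTRES1 (-0.56, adjusted p 0.00372) and TFB1M (-0.69, adjusted p 0.00247) were lower with 5-NA. The promoter factors TFAM and TFB2M and the elongation factor TEFM passed the threshold with no compound, TFAM with differences of -0.05, -0.10 and 0.16 and TFB2M with -0.29, -0.15 and 0.12 for EerI, CBU-028 and 5-NA. Of this list 3 or 4 genes were lower with 5-NA whichever array was left out, whereas the CBU-028 count dropped to 0 without CBU-028 array 1, control array 1 or control array 2.

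**Figure D4:**
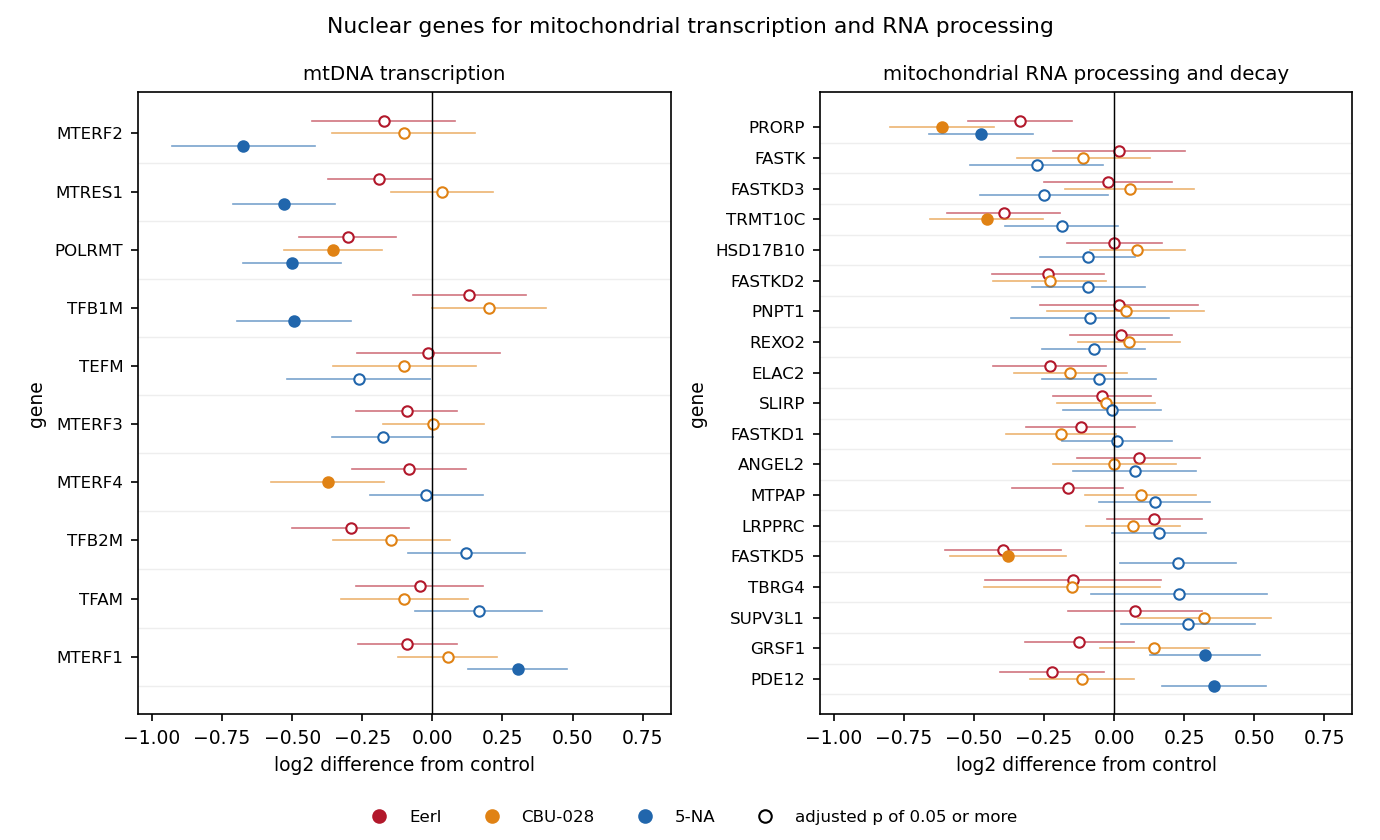
Log2 differences from control (x axis) with 95% intervals for 10 nuclear genes of mtDNA transcription and 19 of mitochondrial RNA processing and decay (y axes), with EerI in red, CBU-028 in orange and 5-NA in blue, filled where the adjusted p was under 0.05. POLRMT and PRORP lie below 0 with all 3 compounds, while no EerI point is filled.

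In the list of mitochondrial RNA processing and decay, with 19 genes, none was called with EerI, 3 were lower with CBU-028, and 1 was lower and 2 higher with 5-NA. PRORP, the nuclease subunit of mitochondrial RNase P that frees the 5' ends of transfer RNAs, read 7.11 and 7.14 with EerI, 6.87 and 6.83 with CBU-028, 6.93 and 7.04 with 5-NA, and 7.51 and 7.41 in control cells. All treated arrays lay below both control arrays. The difference was -0.34 with EerI (adjusted p 0.156 in limma), -0.61 with CBU-028 (adjusted p 0.00253) and -0.48 with 5-NA (adjusted p 0.00525). The treated levels lie near the array medians, and the PRORP probe set carries a cross-hybridization mark. TRMT10C, which encodes another subunit of mitochondrial RNase P, was lower with CBU-028 at -0.46 (adjusted p 0.014). FASTKD5, a processing factor for messages without flanking transfer RNAs, was lower with CBU-028 at -0.38 (adjusted p 0.0327 in limma). With an array left out the FASTKD5 difference was -0.42 to -0.34. With EerI, TRMT10C differed from control by -0.39 and FASTKD5 by -0.40 (adjusted p 0.129 and 0.134 in limma). FASTKD5 differed between 5-NA and CBU-028 by 0.61 (adjusted p 0.00443).

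PDE12, which shortens poly(A) tails, was higher with 5-NA by 0.36 (adjusted p 0.0191 in limma), and by 0.31 to 0.40 with an array left out. GRSF1, an RNA-binding protein of mitochondrial RNA granules, was higher with 5-NA by 0.32 (adjusted p 0.0352 in limma). With an array left out the GRSF1 difference was 0.23 to 0.42. The factors that hold or clear mitochondrial messages gave no calls: LRPPRC differed from control by 0.14, 0.07 and 0.16, SLIRP by -0.04, -0.03 and -0.01, SUPV3L1 by 0.07, 0.32 and 0.26, and PNPT1 by 0.02, 0.04 and -0.09 with EerI, CBU-028 and 5-NA. SUPV3L1 with CBU-028 had an adjusted p of 0.0977. SLIRP, at 14.07 to 14.17, lies in the same bright band as the heavy-strand members.

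The 15 genes of mtDNA replication and nucleotide supply split in both directions, with 2 higher and 1 lower with CBU-028 and 4 higher and 3 lower with 5-NA. The CBU-028 shares were 13.3% higher and 6.67% lower, against 5.49% and 7.1% of all genes. Those with 5-NA were 26.7% and 20%, against 7.87% and 10.9%. TOP3A, a topoisomerase that separates daughter mtDNA molecules, was higher with both, by 0.44 and 0.54. PRIMPOL, a primase that restarts stalled forks, read 8.30 and 8.12 with 5-NA, 9.09 and 9.02 with CBU-028, and 8.64 and 8.64 in control cells. It was thus higher than control with CBU-028 (0.42, adjusted p 0.0183) and lower with 5-NA (-0.43, adjusted p 0.0112). Its difference between 5-NA and CBU-028 was -0.85 (adjusted p 0.00115). With EerI PRIMPOL differed from control by 0.30 (adjusted p 0.241 in limma). Both PRIMPOL calls against control held in 5 of the 8 fits with an array left out. POLG, the catalytic subunit of the mtDNA polymerase, was lower with CBU-028 at -0.35, with an adjusted p of 0.0485 that was over 0.05 with each of the 8 arrays left out in turn. With EerI POLG differed from control by -0.30 (adjusted p 0.291 in limma). Its accessory subunit POLG2 and the topoisomerase TOP1MT were each lower with 5-NA by 0.44.

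Among 11 regulators of mitochondrial biogenesis, 2 were higher and 1 lower with CBU-028, and 2 higher and 2 lower with 5-NA. The CBU-028 shares were 18.2% higher and 9.09% lower, against 5.49% and 7.1% of all genes. Those with 5-NA were 18.2% each, against 7.87% and 10.9%. PPARGC1B, a coactivator of nuclear genes for mitochondria, was lower with both, at -0.45 and -0.46. GABPB2, a subunit of the transcription factor GABP, read 9.36 and 9.28 with 5-NA, 9.98 and 9.94 with CBU-028, and 9.65 and 9.56 in control cells, and so was lower with 5-NA (-0.29, adjusted p 0.0402) and higher with CBU-028 (0.35, adjusted p 0.0254). With each array left out in turn the GABPB2 call held in 2 of 8 fits with 5-NA (adjusted p up to 0.266) and in 3 of 8 with CBU-028 (up to 0.193). With EerI GABPB2 differed from control by 0.33 (adjusted p 0.156 in limma). GABPB1 and the factor YY1 were higher with 5-NA, by 0.58 and 0.42, and TFE3 was higher with CBU-028 by 0.42.

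The calls among the nuclear partners of the members in the respiratory chain are given beside the shares of all genes. These shares were 0.506% higher and 0.263% lower with EerI, where no call is what a short list would mostly give. With CBU-028 they were 5.49% and 7.1%, and with 5-NA 7.87% and 10.9%. Of 33 nuclear subunits of complex I, the enzyme that holds ND2, ND3, ND4 and ND6, none was called by limma with EerI or CBU-028 (0 and 2 with an unadjusted p under 0.05), and 2 were lower with 5-NA, NDUFV2 at -0.44 and NDUFA5 at -0.35. With CBU-028, 1 was called lower with a trended variance and 1 without CBU-028 array 2. Among 7 subunits of complex III, UQCR10 was lower with 5-NA at -0.38. None of 10 nuclear subunits of complex IV was called by limma with any compound or had an unadjusted p under 0.05 there. In the ordinary linear model 2 were higher and 1 lower with CBU-028 and 1 was higher with 5-NA by unadjusted p, and with a trended variance 1 was called lower with CBU-028. Of 16 ATP synthase subunits, ATP5MC1, one of the genes for the membrane ring, was lower with CBU-028 at -0.46 and with 5-NA at -0.53.

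By count, ribosomal proteins (16) and complex I assembly factors (6) gave the most lower calls with 5-NA. By share mtDNA transcription came first at 40%, and complex I assembly factors had 37.5%, against 10.9% of all genes. With CBU-028 the lower share of the assembly factors was 6.25%, against 7.1% of all genes. With CBU-028 1 of the 16 assembly factors of complex I was lower, NDUFAF1 at -0.34 (adjusted p 0.045 in limma). With an array left out this difference was -0.41 to -0.28. With 5-NA 6 of the 16 were lower and none higher, led by NUBPL at -0.71, TMEM186 at -0.69 and FOXRED1 at -0.59. NUBPL, which delivers iron-sulfur clusters to complex I, read 8.90 and 8.82 with 5-NA, 9.49 and 9.39 with CBU-028, 9.55 and 9.60 with EerI, and 9.52 and 9.60 in control cells. All 3 were also lower with 5-NA than with CBU-028, by 0.58, 0.57 and 0.55 (adjusted p 0.00351, 0.00486 and 0.00414). The count of 6 dropped to 3 without either control array, and those 3 leading genes were called with each of the 8 arrays left out.

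Of 50 mitochondrial ribosomal proteins, which build the ribosome that translates the members, 16 were lower and none higher with 5-NA. The lower share was 32%, against 10.9% of all genes. The median difference of this list was -0.19, against -0.03 over all genes, and MRPL24 at -0.52, MRPS12 at -0.43 and MRPS10 at -0.40 fell furthest. The median stayed between -0.21 and -0.18 with any array left out, but the count did not: 1 was lower without control array 1, 2 without control array 2, 4 and 5 without the 5-NA arrays, 8 without either EerI array, and 22 without either CBU-028 array. With CBU-028 2 were higher and 2 lower (4% each, against 5.49% and 7.1% of all genes). These included MRPL1 at 0.42, MRPL16 at -0.37 and MRPS17 at -0.32. With EerI these genes differed from control by 0.15, -0.19 and -0.38 (adjusted p 0.70, 0.445 and 0.095 in limma). In the list of 15 mitochondrial chaperones and proteases, 2 were lower with 5-NA (13.3%, against 10.9% of all genes) and none higher. They were OMA1, a stress-activated protease of the inner membrane, at -0.71 and DNAJA3, an Hsp70 co-chaperone, at -0.38. With CBU-028 HTRA2 alone was called, lower at -0.40 (6.67% of the list, against 7.1% of all genes).

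**Figure D5:**
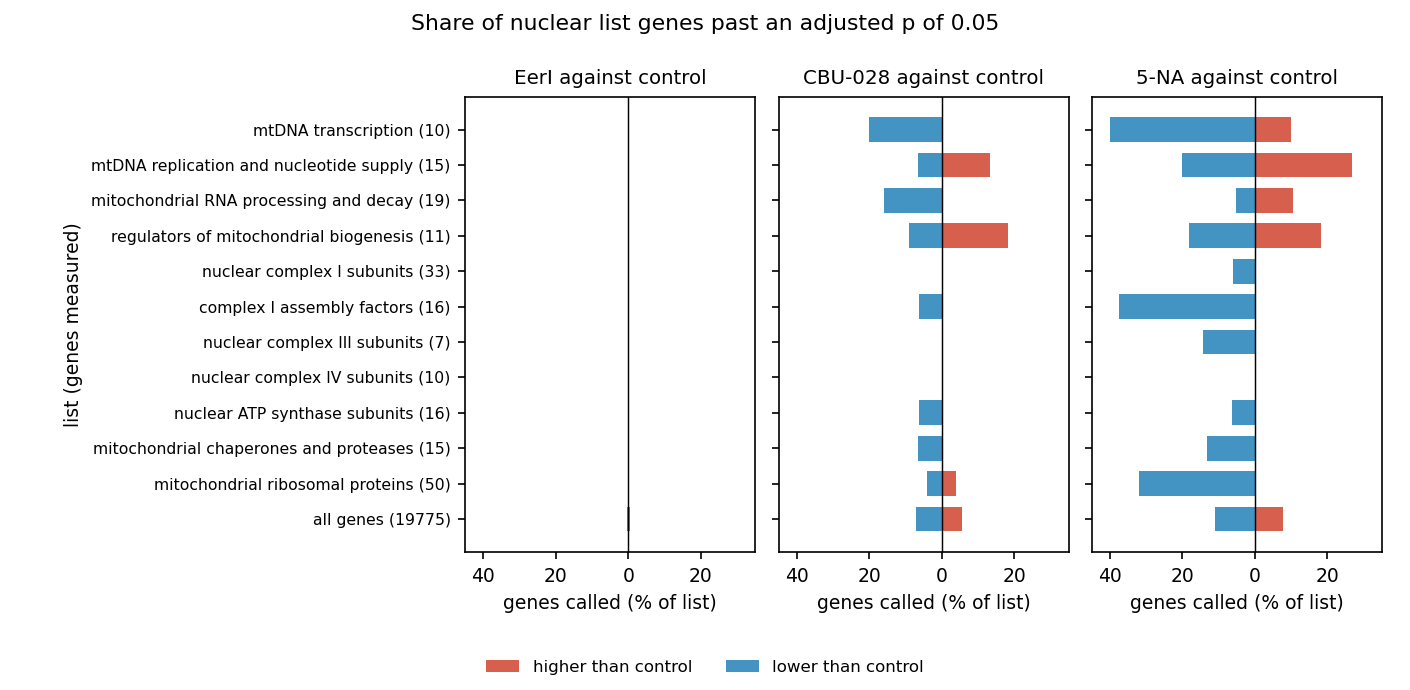
Genes past an adjusted p of 0.05 as a percent of the measured genes (x axes, lower to the left and higher to the right) in each of the 11 nuclear lists and over all genes (y axis), for EerI, CBU-028 and 5-NA against control. With 5-NA the lower share was 40% for mtDNA transcription, 37.5% for complex I assembly factors and 32% for mitochondrial ribosomal proteins, against 10.9% of all genes.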

How the data were processed

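The 8 Affymetrix arrays held RNA of 293T cells, with a pair of arrays for each group. The deposited values are log2 values that the authors made with RMA, an algorithm of background correction, quantile normalization and probe set summary. Partek is named in the labels too, and versions are not given in the sources used here. The array type in the methods differs from that to which the probe sets belong (HG-U133 Plus 2.0), and RNA extraction is described by TRIzol with a MinElute kit in the methods and by an RNeasy kit in the labels. RMA leaves no measure of signal over background, and the number of arrays limits the precision.

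The platform annotation gave 41097 probe sets 1 symbol, 1801 several and 11777 none. A linear model with a mean for each group was fitted to all arrays in limma (version 3.58.1, R 4.3.3), which moderated 4 residual degrees of freedom with 5.08 prior ones. Adjusted p-values are Benjamini-Hochberg values across the 54675 probe sets, and a probe set was called when its adjusted p was under 0.05. Of 6 comparisons, that of EerI with control gave members no test, and ND6 was left out of both other comparisons with EerI as a group. The median SE of a log2 difference was 0.099. With 2 arrays a group an exact permutation test cannot go below p = 0.333, so none was used. The fit was first tested on simulated data in which the changes were known.

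Of the 19775 genes each was read from its brightest probe set on average. Named were all members, a fixed set of 8 regulators of mitochondrial RNA, the 3 called genes of a list with the largest change in each comparison, and the 5 genes most like ND6 among probe sets with an SD of at least 0.3. The members and lists were chosen with earlier results of these data known. The alternatives were an ordinary linear model as in the methods, fold thresholds of 1.5 and 2, filters at log2 5 and 7, 1 probe set per gene, probe sets without cross-hybridization marks, other scaling, a replicate block, a fit of 2 groups, a trended variance, array weights and each array left out. Alternatives for ND6 against control with CBU-028 and 5-NA, and for the nuclear lists, were added after seeing the data.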

Additional observations from a re-analysis of the deposited data

Results flagged for a closer look

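The difference of ND6 between 5-NA and CBU-028 was noted because the effects of these compounds differ by a direct test. ND6 was 1.44 higher on the log2 scale with 5-NA than with CBU-028 (adjusted p 0.00115 in limma). Both 5-NA arrays lay above both CBU-028 arrays. With 2 arrays a group, such a separation cannot go below p = 0.333 in an exact permutation test. The nuclear genes PRIMPOL and GABPB2 were noted because they were called in opposite directions against control and differed by the same direct test, by -0.85 (adjusted p 0.00115) and -0.64 (adjusted p 0.00214) for 5-NA minus CBU-028. With each array left out in turn, PRIMPOL kept its call in 5 of 8 fits with 5-NA (adjusted p up to 0.0828) and in 5 of 8 with CBU-028 (up to 0.123), and GABPB2 in 2 of 8 with 5-NA (up to 0.266) and in 3 of 8 with CBU-028 (up to 0.193).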

How the results depend on the processing

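Of the ND6 differences, those of CBU-028 against control and of 5-NA against CBU-028 kept their direction and their call under all alternatives run. The difference of 5-NA from control kept its direction at -0.76, but lost its call in an ordinary linear model with adjustment (adjusted p 0.11), at a threshold of 2-fold, and without 5-NA array 1, 5-NA array 2 or control array 1. With each array left out in turn it ranged between -0.83 and -0.69. The difference of EerI from control, given without a test, ranged between -2.20 and -1.68 in this way. Called members with 5-NA against control were 0 under the adjusted ordinary model and the 2-fold threshold, and 0 to 1 with an array left out, against 1 as reported. By unadjusted p in the ordinary model they were 2 for CBU-028 against control, 1 for CBU-028 against EerI and 2 for 5-NA against CBU-028, against 1, 0 and 1, and ND3 was the added probe set each time. Scaling each array to its median or by renewed quantile normalization changed no call of a member.

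Genes called over the nuclear lists (0 with EerI, 18 with CBU-028 and 47 with 5-NA) moved most. They were 38, 60 and 86 by unadjusted p in the ordinary model, and 7, 39 and 72 with a trended variance. For CBU-028 and 5-NA they were 1 and 5 at 1.5-fold, 0 and 0 at 2-fold, and 8 and 25 without cross-hybridizing probe sets. For EerI and CBU-028 they were 1 and 31 without probe sets under log2 7, and 1 and 29 with 1 probe set per gene, where fewer probe sets were tested. Array weights gave 10 for EerI. With an array left out they ranged over 0 to 1 with EerI, 1 to 16 with CBU-028 and 11 to 56 with 5-NA. Other causes were not tested. Where leaving out an array leaves 1 sample in a group, that sample was assumed to vary like the other groups.

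No strong shared shift of same-numbered arrays was seen, since their deviations correlated at -0.15 to 0.15 between groups. This cannot show whether same-numbered samples were handled together. With the replicate number as a block, members called stayed at 1, 1, 0, 0 and 1 in the 5 tested comparisons, ND6 kept -2.19 with CBU-028 (adjusted p 0.00026), -0.76 with 5-NA (adjusted p 0.0124) and 1.44 for 5-NA against CBU-028 (adjusted p 0.00213), and the nuclear lists gave 0, 15 and 43.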
